A study of Salmo salar with 12 samples.

Results

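The change of CpG methylation between 2 time points in the ovary of female Atlantic salmon was set against the change between the same time points in the pituitary and the liver. The units were 1 kb stretches of the genome (tiles) that held at least 3 cytosines covered in all 12 libraries. These were 495114 tiles, 23.8% of the 2076805 tiles with a cytosine listed for any library, and the rule for tiles used only coverage. The level of a tile in a library was its methylated reads as a percentage of its reads, summed over the common cytosines. The contrast of a tile was ovary T4 minus ovary T1, less the mean of that difference in the pituitary and in the liver, in percentage points (points below). A positive contrast means that the ovary gained more methylation, or lost less, than the other tissues.

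The 6 groups were ovary T4 and ovary T1, pituitary T4 and pituitary T1, and liver T4 and liver T1, with 2 libraries of whole-genome bisulfite sequencing each. T1 fish were sampled just before a long-light photoperiod started in their tanks, and T4 was the last of the samplings made at intervals of 2 weeks after it started. All were female brood stock of 1 management group, and the paper treats T1 as before the onset of maturation. No strain or genotype is given in the labels. At each time point 4 fish were taken, of which 2 per tissue were used here. No fish kept without the long light were sequenced at T4, so the light regime and the time that passed cannot be told apart. Whole tissues were used, so a shift in the cell types of a tissue and a change of methylation within its cells cannot be told apart either.

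In bisulfite sequencing an unmethylated cytosine is read as thymine, whereas a methylated cytosine stays. In vertebrates most CpG cytosines carry a methyl group, and low levels are typical of CpG-rich promoters and of regulatory sites in use, many of which differ between tissues. During maturation the pituitary releases gonadotropins, the ovarian follicles answer with oestrogen, and the liver under oestrogen makes the yolk precursor vitellogenin that growing oocytes take up. The comparison asked how far the methylation change of the ovary during that period was its own, and in which kind of tile.

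Cytosines with 10 or more reads numbered 9063730 to 12056957 per library, with summed coverage of 159785200 to 224866844 reads. A tile held a median of 5 common cytosines, read a median of 22.8 times each per library. Pituitary T1 replicate 1 stood apart in 1 respect, as it listed no cytosine above 150 reads. The libraries were also compared at 10995 cytosines that varied strongly between libraries but little between tissue means. There, 8 pairs of libraries from different tissues correlated at 0.834 to 0.868 and the other 40 pairs at -0.575 to 0.504, in a description over cytosines that share their libraries. By this measure the T4 replicate 2 libraries of all 3 tissues matched each other, as did the T1 replicate 1 libraries of all 3 tissues. Ovary T1 replicate 2 and liver T4 replicate 1 matched no library of another tissue. The highest correlations of ovary T1 replicate 2 were 0.504 (pituitary T1 replicate 2) and 0.388 (liver T1 replicate 2). The fish codes in the titles went against the matching for 3 pairs with the same code that did not match. They also did so for 3 pairs that matched without it. Results are therefore also given for the 6 libraries that matched in all 3 tissues, which leave 1 library per group and no test.

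Over the tiles common to all libraries the ovary gained methylation relative to the other tissues, by a small margin that did not pass on every scale. The mean tile level was 77.9% and 78.7% in the ovary T4 libraries, against 77.8% and 77.4% in the ovary T1 libraries. In the pituitary it was 79.3% and 78.9% at T4, against 79.5% and 79.8% at T1. In the liver it was 81.7% in both T4 libraries, against 81.9% and 81.8% at T1. The T4 libraries were thus above the T1 libraries in the ovary and below them in each other tissue, with no overlap. The ovary difference was 0.65 points, the pituitary difference -0.54 points and the liver difference -0.12 points, which gives a contrast of 0.978 points ± 0.463 (SE from the 6 pairs of replicates). The exact two-sided permutation test, in which the time labels were exchanged within each tissue, gave p = 0.00926, the smallest that its arrangements can give. In the ovary alone 2 libraries against 2 cannot go below 0.333, so a small p here rests on the order of the libraries in all 3 tissues. The null of the test is no time change in any tissue, not an equal change in all of them. The test treats libraries of the same fish as independent. On the log2 odds scale it was 0.07 (exact permutation test, p = 0.0648), and as a mean over every cytosine of each file 0.311 points (exact permutation test, p = 0.583), so neither passed. Among the 6 matching libraries the contrast was 1.23 points, and with the matched fish as a block 0.782 points. In that fit ovary T1 replicate 2 and liver T4 replicate 1, which matched no other library, carried no weight. Nor did the pituitary and liver T1 replicate 2 libraries, so its T1 values came from the T1 replicate 1 libraries alone. Without ovary T4 replicate 2 it was 0.576 points (exact permutation test, p = 0.0926), so that library carried much of it.

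The tiles spread widely around this mean. The median contrast was 0.467 points, the middle 50% of tiles lay between -2.88 and 4.21 points, and 53.8% were above 0. The SD over tiles was 6.71 points, against a root mean square standard error of 6.11 points for a single tile, so 17.0% of the variance over tiles was beyond the error seen between replicates. The tail of gains was longer than the tail of losses. A contrast above 20 points was found in 6676 tiles (1.35%) and below -20 points in 1270 tiles (0.257%). In tiles above 20 points the median difference was 20.6 points in the ovary, -3.58 points in the pituitary and -3.60 points in the liver, as a description, since these tiles were selected on the contrast, in which the ovary has the full weight. Without ovary T4 replicate 2 the counts were 6514 and 3013, and over the single omissions of the 12 libraries the ratio of gains to losses lay between 2.16 and 5.24.

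Most of the summed contrast came from tiles that were less methylated in the ovary than in the other tissues. The tissue gap of a tile was its mean level in the 4 ovary libraries minus its mean level in the 8 pituitary and liver libraries. It weighs both time points equally. In the 9633 tiles with a gap under -30 points, the mean level was 39.5% and 45.9% in the ovary T4 libraries, against 34.0% and 29.1% in the ovary T1 libraries. Both T4 libraries lay above both T1 libraries, with a difference of 11.1 points between the means and SDs between replicates of 4.56 points at T4 and 3.44 points at T1. In the same tiles the pituitary had 72.8% and 72.6% at T4, against 73.5% and 74.0% at T1, and the liver 77.9% and 77.0% at T4, against 78.6% and 78.2% at T1. The contrast was 12.1 points ± 4.05 (SE; exact permutation test, p = 0.00926, Benjamini-Hochberg adjusted p = 0.0304 over 23 classes of level, density and gap). The distance between the ovary and the other tissues was -32.4 points at T4, against -44.5 points at T1, so 27.2% of the T1 distance had closed.

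**Figure D1:**
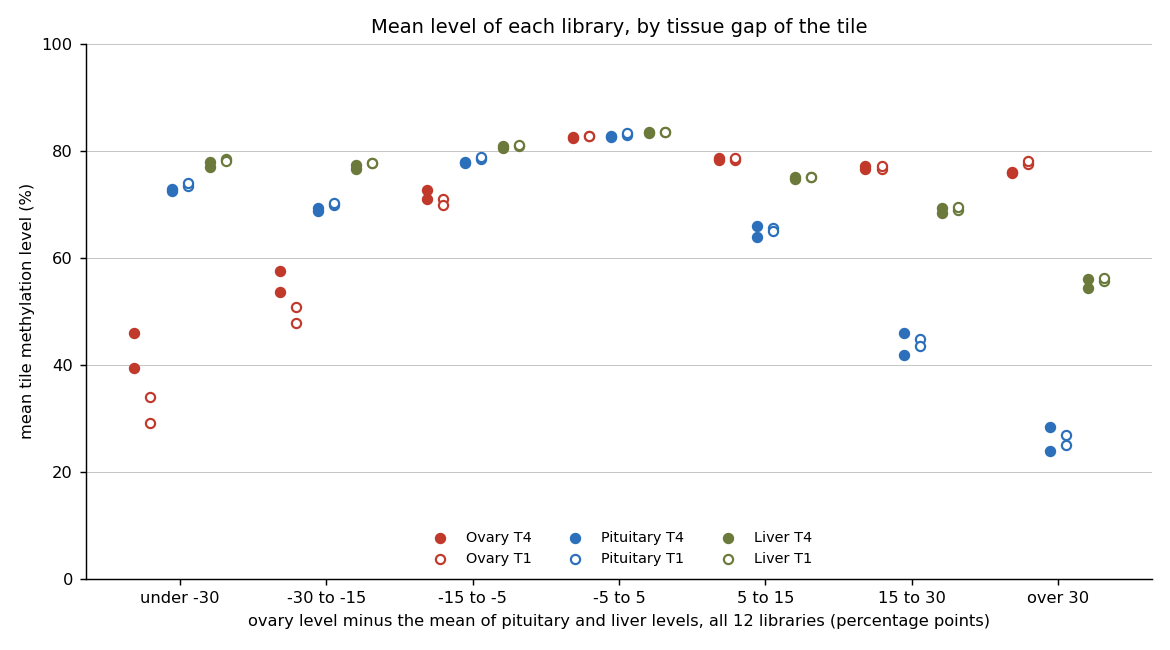
Mean tile methylation level (%, y axis) of each of the 12 libraries, as 1 point per library, in 7 classes of the tissue gap (ovary minus the mean of pituitary and liver, points, x axis); filled points are T4 and open points T1. In the tiles with a gap under -30 the ovary T4 libraries sit at 39.5% and 45.9% and the ovary T1 libraries at 34.0% and 29.1%, while the pituitary and liver libraries lie between 72.6% and 78.6%.

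The next classes showed the same pattern with smaller differences. In the 26792 tiles with a gap from -30 to -15 points, the ovary had 53.6% and 57.5% at T4, against 50.9% and 47.9% at T1, and the contrast was 7.04 points ± 2.46 (SE; exact permutation test, adjusted p = 0.0304). There 28.7% of the T1 distance had closed. In the 78244 tiles with a gap from -15 to -5 points the contrast was 1.95 points ± 0.940 (SE; exact permutation test, adjusted p = 0.0355). Here the groups were close, with 71.1% and 72.6% in the ovary at T4 and 71.0% and 69.9% at T1.

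Tiles whose ovary level was similar to that of the other tissues, the large majority, showed almost no contrast. In the 339324 tiles with a gap from -5 to 5 points the ovary had 82.4% and 82.7% at T4, against 82.7% in both T1 libraries. The contrast was 0.0458 points ± 0.176 (SE; exact permutation test, p = 0.824), and it was 0.0695 points ± 0.202 over all 380445 tiles with a gap over -5 points (exact permutation test, p = 0.713). The 36425 tiles with a gap under -15 points, 7.36% of all tiles, supplied 63.1% of the summed contrast, and tiles between -15 and -5 points another 31.5%. The share of the tiles under -15 points ranged from 56.8% to 78.2% when each of the 12 libraries was left out in turn. The contrast of these tiles exceeded that of tiles near 0 by 8.34 points ± 2.77 (SE; exact permutation test, p = 0.00926, adjusted p = 0.0556 over 12 such differences, which does not pass).

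On average, tiles that were more methylated in the ovary than elsewhere gave no such result. In the 9330 tiles with a gap over 15 points the ovary had 76.6% and 77.0% at T4, against 76.7% and 77.3% at T1, with overlap. On average these tiles were low mainly in the pituitary, with means of 41.9% at T4 and 42.2% at T1. The liver means were 67.4% and 67.8%. The contrast was 0.104 points ± 1.17 (SE; exact permutation test, p = 0.917). In the 1032 tiles with a gap over 30 points it was -1.64 points ± 1.31 (SE; exact permutation test, adjusted p = 0.355), with 76.0% and 75.9% in the ovary at T4 and 77.5% and 78.2% at T1. If both kinds of tile had drawn toward the other tissues alike, the contrasts under -15 and over 15 points would sum to 0. The sum was 8.49 points ± 3.11 (SE), but the exact permutation test gave p = 0.0648 (adjusted p = 0.111), so the asymmetry was not established with these libraries. The 2 classes also differed in make-up. The ovary was over 15 points below both tissues in 24332 of the 36425 tiles, but above both in only 1453 of the 9330.

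**Figure D2:**
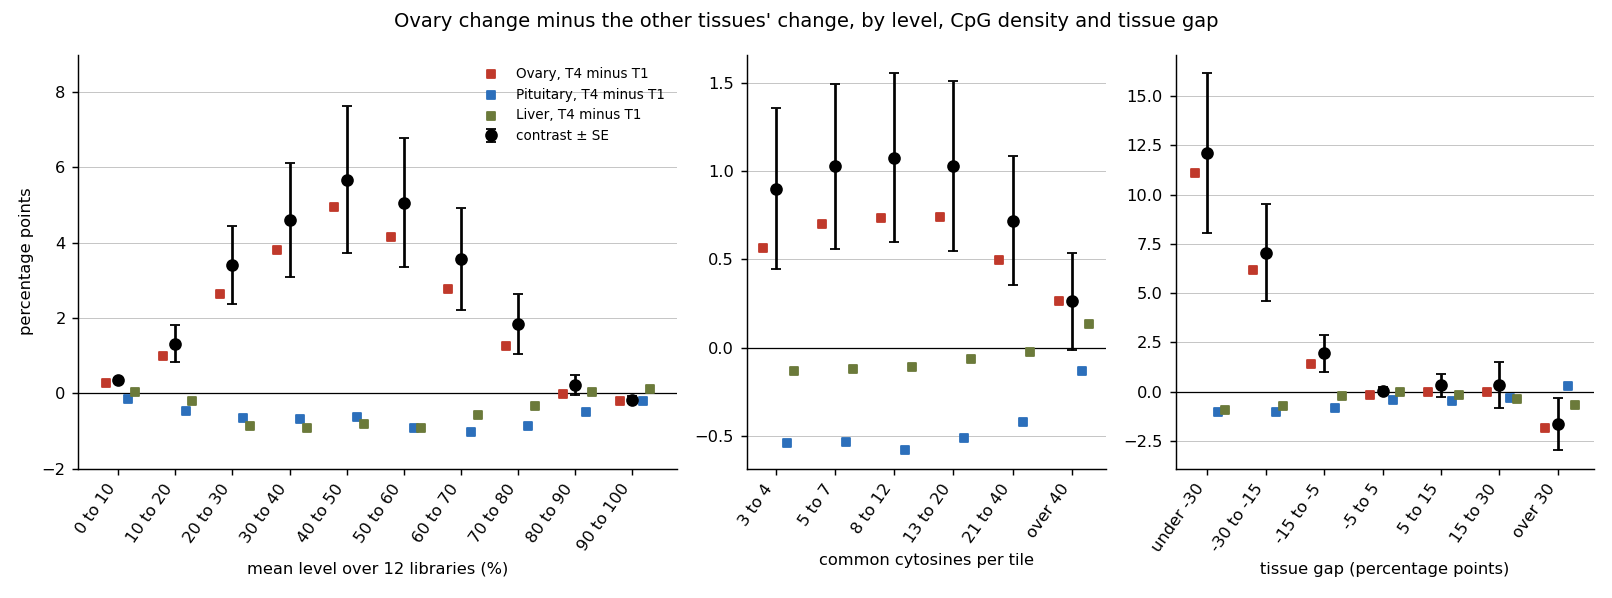
Contrast (points; black points with SE) and the T4 minus T1 difference of each tissue (coloured squares) by mean level over the 12 libraries (left), common cytosines per tile (middle) and tissue gap (right); each panel has its own y scale. The contrast reaches 5.68 points at levels of 40 to 50% and 12.1 points at gaps under -30, and stays between 0.262 and 1.07 points over the density classes.

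The whole distribution of the contrast lay higher in the tiles where the ovary was well below the other tissues. With a gap under -30 points, 89.1% of tiles had a contrast above 0 and the middle 50% lay between 5.68 and 18.7 points. Of these tiles 20.8% were above 20 points, beside the 1.35% of all tiles, and 0.197% were below -20 points. With a gap from -5 to 5 points, 49.7% were above 0 and the median was -0.0277 points. The error of a single tile was large beside the spread over tiles, as 15.5% of the variance with a gap under -30 points and 22.5% with a gap from -30 to -15 points was beyond the error seen between replicates, and none with a gap from -5 to 5 points.

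**Figure D3:**
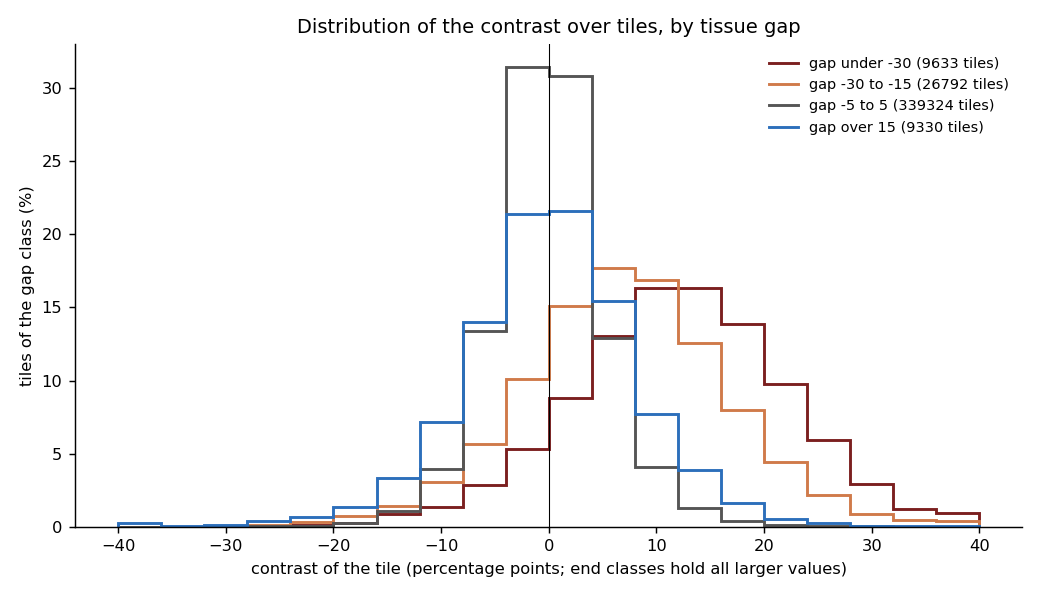
Share of tiles (%, y axis) by contrast (points, in classes of 4, x axis) for 4 classes of the tissue gap, with larger values in the end classes. The curve for gaps from -5 to 5 is centred near 0 (median -0.0277), the curve for gaps over 15 is wider and also centred near 0, and the curves for gaps from -30 to -15 and under -30 lie to the right, with medians of 7.04 and 12.2 points.

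The same was seen by counting tiles. Both ovary T4 libraries lay above both ovary T1 libraries in 99586 tiles (20.1% of all tiles) and below them in 86076 tiles (17.4%). With libraries in random order, 2 against 2 would be fully apart, in either direction, in a share of 0.333 of tiles. In tiles with a gap under -30 points these shares were 59.7% and 3.52%, and with a gap from -5 to 5 points 16.2% and 18.9%. In the pituitary, T4 was above T1 in 13.4% and below in 22.4% of the tiles with a gap under -30 points, beside 14.2% and 20.2% of all tiles. In the liver the shares in those tiles were 13.5% and 21.4%, beside 16.7% and 17.2% of all tiles.

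The size of the contrast depended on the libraries used. When the gap classes were set with the replicate 1 libraries and the contrast was taken from the replicate 2 libraries, tiles with a gap under -30 points had 47.6% in the ovary at T4 and 31.5% at T1, a contrast of 17.4 points. With the roles exchanged they had 41.8% at T4 and 36.5% at T1, a contrast of 5.96 points. In both cases the next class was lower (9.58 and 2.99 points) and the tiles near 0 lower again (0.371 and -0.183 points). The classes over 5 points had no stable order between both cases. The libraries of the matching fish gave 13.2 points under -30 points and 7.70 points from -30 to -15 points. The matched fish as a block gave 10.65 points under -30 points, in a fit whose T1 values came from the T1 replicate 1 libraries alone. Leaving out each library in turn gave 8.88 points (without ovary T4 replicate 2) to 15.3 points (without ovary T4 replicate 1) under -30 points.

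It was then asked whether the other tissues gained methylation where they themselves were low. In the 33562 tiles where the pituitary was over 15 points below the mean of the other 2 tissues, its level was 43.9% and 40.7% at T4, against 43.4% and 42.6% at T1. The pituitary change minus that of the other 2 tissues was -1.76 points ± 1.77 (SE; exact permutation test, p = 0.361). In the 6946 tiles where the liver was that low, its level was 47.1% and 49.6% at T4, against 48.0% and 50.4% at T1, and the corresponding contrast was -0.901 points ± 1.77 (SE; exact permutation test, p = 0.454). In both tissues the libraries of the 2 time points overlapped. The ovary contrast in ovary-low tiles exceeded the pituitary contrast in pituitary-low tiles by 10.1 points ± 3.38 (SE; exact permutation test, p = 0.0926, adjusted p = 0.123) and the liver contrast in liver-low tiles by 9.28 points ± 3.38 (SE; exact permutation test, p = 0.0741, adjusted p = 0.111). Neither difference passed.

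The gap could be to either tissue. Where the ovary was over 15 points below both, in 24332 tiles, the contrast was 8.84 points ± 3.05 (SE; exact permutation test, p = 0.00926). Where it was that far below the liver but within 5 points of the pituitary, in 6653 tiles, the contrast was 6.20 points ± 2.24 (SE; exact permutation test, p = 0.0185). Where it was that far below the pituitary but within 5 points of the liver, in 1672 tiles, it was 4.27 points ± 1.57 (SE; exact permutation test, p = 0.0185). Where the ovary was within 5 points of both, in 252421 tiles, it was -0.146 points ± 0.132 (SE; exact permutation test, p = 0.574). In 5205 tiles the ovary was over 15 points above the pituitary but that far below the liver. The contrast there was 6.27 points ± 2.32 (SE; exact permutation test, p = 0.139). In the 409 tiles of the reverse order it was 4.92 points ± 2.64 (SE; exact permutation test, p = 0.0833), and neither passed. Where the ovary was over 15 points above both tissues, in 1453 tiles, the contrast was -1.22 points ± 1.34 (SE; exact permutation test, p = 0.435). Over 15 points above the pituitary but within 5 points of the liver, in 10108 tiles, it was 0.410 points ± 0.911 (SE; exact permutation test, p = 0.815). In the 2794 tiles with the liver and pituitary exchanged it was 0.196 points ± 0.913 (SE; exact permutation test, p = 0.676). These values are from single tests without adjustment.

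By level, the contrast was largest in tiles of intermediate methylation. It was 0.349 points in tiles with a mean level under 10%, 3.40 points from 20 to 30%, 4.62 points from 30 to 40%, 5.68 points ± 1.96 (SE) from 40 to 50%, 5.06 points from 50 to 60% and 3.57 points from 60 to 70%. It was 1.84 points from 70 to 80%, 0.224 points ± 0.271 (SE) from 80 to 90% and -0.173 points ± 0.0924 (SE) in the 115464 tiles above 90%. Of the 10 classes of level, the 7 between 10 and 80% passed (exact permutation test, adjusted p of 0.0304 to 0.0456). From 40 to 50% the ovary had 40.9% and 44.2% at T4, against 38.5% and 36.7% at T1, with no overlap. Tiles from 80 to 90% made up 44.2% and tiles above 90% 23.3% of all tiles, whereas those from 40 to 50% made up 1.81%. On the log2 odds scale the contrast was 0.10 under 10%, 0.38 from 40 to 50% and 0.02 from 80 to 90%, so the hump over the middle levels was also present there. That scale is less compressed near 0 and 100% than points, but its pseudocount of 1 shrinks values there.

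Level and gap were separated by crossing them. Within levels of 30 to 60%, the contrast was 9.78 points ± 3.13 (SE) in the 9634 tiles with a gap under -15 points, 2.57 points ± 0.975 (SE) in the 8843 tiles with a gap from -5 to 5 points and 0.704 points ± 1.37 (SE) in the 2472 tiles with a gap over 15 points. The first exceeded the second by 7.20 points ± 2.29 (SE; exact permutation test, p = 0.0278, adjusted p = 0.0667). For the second alone the exact permutation test gave p = 0.0185 (adjusted p = 0.0556), and neither passed after adjustment. Within levels of 80 to 100%, the 4884 tiles with a gap under -15 points had a contrast of 5.96 points ± 2.17 (SE; exact permutation test, p = 0.0185), against -0.154 points ± 0.139 (SE; exact permutation test, p = 0.546) in the 272728 tiles with a gap from -5 to 5 points. In the 488 tiles of low level (under 30%) with a gap over 15 points the contrast was -4.09 points ± 1.13 (SE), but the exact permutation test gave p = 0.176.

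**Figure D4:**
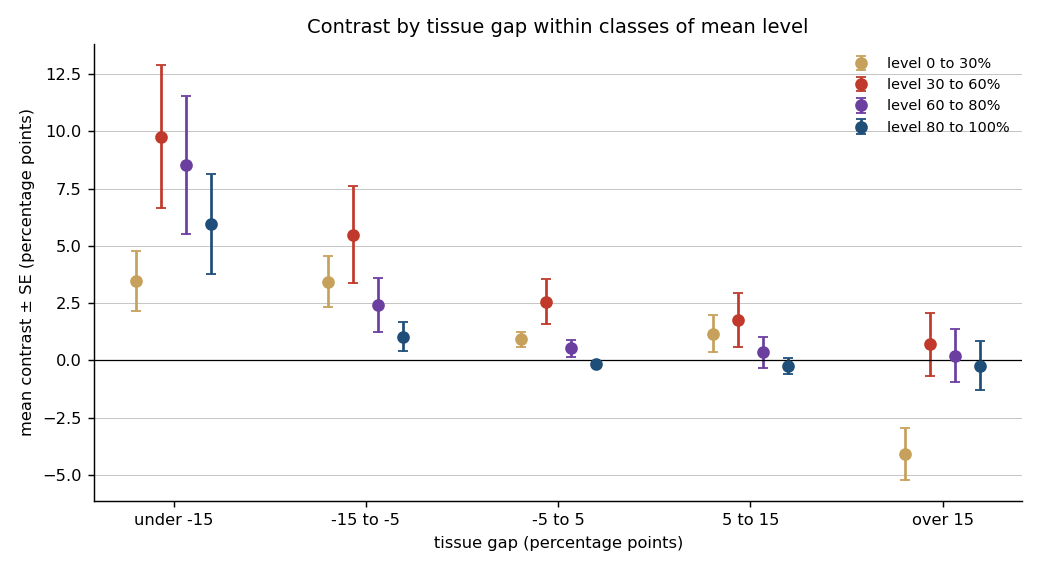
Mean contrast (points, with SE, y axis) by tissue gap (x axis) within 4 classes of mean level over the 12 libraries. At each level the contrast is highest at gaps under -15 (9.78 points at levels of 30 to 60% and 5.96 points at levels of 80 to 100%). At levels under 30% it is nearly the same at gaps under -15 and from -15 to -5 (3.47 and 3.43 points). It falls to -4.09 points in the tiles of low level with gaps over 15.

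The contrast was also described by CpG density. The files list cytosines, not the genome sequence, so density was the number of common cytosines per tile. A cytosine had to be covered in all 12 libraries to count, so these classes mix CpG density with coverage. The median coverage per cytosine was 21.6 reads with 3 to 4 common cytosines, 31.3 reads with 21 to 40 and 40.1 reads with more than 40. The part of CpG density alone was not tested. The contrast was 0.900 points ± 0.458 (SE) with 3 to 4 cytosines, 1.03 points with 5 to 7, 1.07 points with 8 to 12, 1.03 points with 13 to 20, 0.719 points ± 0.365 (SE) with 21 to 40 and 0.262 points ± 0.273 (SE) in the 484 tiles with more than 40. The first 4 classes passed (exact permutation test, adjusted p of 0.0304 and 0.0355), and the classes of 21 to 40 (adjusted p = 0.0666) and over 40 (adjusted p = 0.516) did not. The class of 21 to 40 differed from the class of 3 to 4 by -0.182 points ± 0.145 (SE; exact permutation test, p = 0.213), which did not pass, and the other classes were not tested against each other. The densest tiles were also the most methylated, with a mean level of 89.0% over 40 cytosines, against 79.1% at 3 to 4.

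The tiles with the ovary well below the other tissues were also divided by density. With a gap under -15 points the contrast was 8.22, 8.54, 8.41, 8.69 and 8.84 points from the class of 3 to 4 to the class of 21 to 40 cytosines. The last minus the first, which did not pass, was 0.622 points ± 1.07 (SE; exact permutation test, p = 0.537). The share of tiles above 20 points was 13.5% of those with 3 to 4 cytosines and 5.66% of the 159 with 21 to 40, where the error of a single tile was 9.49 points and 8.23 points. Coverage moved with the contrast. It was 0.649 points in tiles read 14 to 16 times per cytosine and 1.34 points ± 0.578 (SE) in the 44065 tiles read over 35 times, whose mean levels were 82.9% and 76.3%. The part of coverage in the result was not tested.

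The contrast was spread over the genome. All coordinates are those of the files (assembly ICSASG_v2, counted from 1), and gene models for that build were not at hand, which is why tiles are not placed in a gene, an exon or a promoter. The mean contrast was above 0 on all 29 chromosome sequences, from 0.811 points on CM003302.1 to 1.33 points on CM003285.1. CM003285.1 also had the largest share of tiles with a gap under -15 points (9.42%). Within such tiles the contrast lay between 7.41 points (CM003301.1) and 9.14 points (CM003299.1), a narrower relative range than that of the means. The 38575 tiles on unplaced sequences had 0.758 points, 0.239 points less than those on chromosomes (exact permutation test, p = 0.0556). Within 1 Mb of a chromosome end the contrast was 0.872 points, against 0.985 points beyond 20 Mb. Of 20672 windows of 100 kb with 10 or more tiles, 72.4% had a mean above 0, 281 were above 5 points and 15 below -5 points.

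Adjacent tiles resembled each other over a short range only. The Pearson correlation of the contrast was 0.117 over 132393 pairs of adjacent tiles, 0.0312 at 2 kb, 0.0132 at 10 kb and -0.00151 at 100 kb, as a description over tiles that share their libraries. The gap had a correlation of 0.257 between adjacent tiles. Next to a tile above 20 points the mean contrast was 5.43 points, and next to a tile below -20 points it was -1.17 points. Runs of 2 or more adjacent tiles above 20 points numbered 153 and runs below -20 points 18. Runs of 3 or more numbered 5 and 0, the longest with 5 tiles.

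The tiles at the 2 tails differed in their tissue gap. Those above 20 points had a median gap of -20.8 points, and 63.0% had a gap under -15 points, beside 7.36% of all tiles. Those below -20 points had a median gap of -1.50 points, and 12.3% had a gap under -15 points. Losses were also more frequent where the ovary was high. With a gap over 15 points 1.48% of tiles were below -20 points, and over 30 points 3.88%, beside 0.257% of all tiles. Above 20 points these shares were 0.954% and 0.872%, beside 1.35%. The error of a single tile was 7.69 points with a gap over 15 points, against 6.11 points over all tiles. Both tails had intermediate levels, with medians of 63.3% and 64.6%. The matching fish gave the same sign in 98.4% of the tiles above 20 points and in 93.5% of those below -20 points, but these fish are part of the same libraries. The median contrast of the tiles below -20 points was -19.7 points in the matching fish, with medians over all libraries of -18.9 points for the ovary change, 3.20 points for the pituitary change and 6.06 points for the liver change.

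Single tiles were then tested with edgeR's quasi-likelihood F test on methylated and unmethylated reads, over the 494902 tiles with a methylated read in some library. At a Benjamini-Hochberg adjusted p under 0.05, 3 tiles passed (0.000606%), all with a positive contrast. At an unadjusted p under 0.05 there were 21350 tiles with a positive contrast (4.31%) and 10373 with a negative contrast (2.1%). In tiles with a gap under -30 points these shares were 33.6% and 0.519%, and with a gap from -5 to 5 points 2.33% and 2.25%. Planted changes of 30 points in the ovary at T4 were recovered by edgeR in 51% of 100 simulated gains and 34% of 100 simulated losses among 494902 tiles. They were planted only in tiles of intermediate ovary level, with a common dispersion and no fish effects. Many true changes of this size would thus be missed in such tiles, and tiles of high level were not tried. The count depended on single libraries, as it was 0 without any of 6 libraries (ovary T4 replicate 2, ovary T1 replicate 2, pituitary T4 replicate 2, pituitary T1 replicate 2, liver T4 replicate 1 or liver T1 replicate 2) and 141 without ovary T1 replicate 1. It was 24 with the replicate number as a block and 2 with the matched fish as a block.

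The 3 tiles were of different kinds. The tile on CM003280.1 from 19717001 to 19718000 (7 cytosines) had 31.7% and 35.6% in the ovary at T4, against 6.94% and 6.70% at T1. The pituitary had 64.4% and 60.7% at T4, against 68.4% and 69.3% at T1, and the liver 71.6% and 79.7% at T4, against 83.5% and 79.7% at T1. The ovary groups were far apart and each other tissue was on average slightly lower at T4, all 7 cytosines had a positive contrast, and the tile contrast was 33.0 points ± 3.15 (SE; log2 odds contrast 3.25, edgeR adjusted p = 0.0214). The tile to its right had a contrast of 15.2 points and a gap of -44.5 points, and the tile to its left -2.40 points and a gap of 1.63 points.

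The tile on CM003302.1 from 23187001 to 23188000 (4 cytosines) had 41.1% and 56.7% in the ovary at T4, against 7.48% and 8.51% at T1. The pituitary had 15.1% and 20.6% at T4, against 27.6% and 30.2% at T1, and the liver 13.3% and 16% at T4, against 25.5% and 35.1% at T1. The ovary was the lowest tissue at T1 and the highest at T4, while each other tissue was lower at T4, with a contrast of 54.2 points ± 8.36 (SE; log2 odds contrast 4.58, edgeR adjusted p = 0.0226). It was covered by only 50 to 107 reads per library.

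The tile on the unplaced sequence AGKD04016877.1 from 6001 to 7000 (29 cytosines) owed its contrast to the liver. The liver had 33.0% and 38.7% at T4, against 82.0% and 85.9% at T1. The ovary had 80.3% and 86.2% at T4, against 80.7% and 74.6% at T1, with overlap, and the pituitary 79.3% and 78.1% at T4, against 77.3% and 84.2% at T1. Its contrast was 30.6 points ± 4.92 (SE; log2 odds contrast 2.24, edgeR adjusted p = 0.0214), although the ovary difference was only 5.57 points. Its coverage reached 111 reads per cytosine, in the liver at T4. The liver T4 libraries had 2974 and 3230 reads there, of which 982 and 1250 were methylated. The liver T1 libraries had 1781 and 1646 reads, of which 1460 and 1414 were methylated. The ovary and pituitary libraries had 925 to 1739 reads. The low liver level at T4 thus came with extra reads, and their part in the contrast was not tested.

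Further tiles were named by a rule on their p, coverage and replicates, 6 in each direction from the 53532 tiles that met its filters. The first with a positive contrast was the tile on CM003280.1 described above. The other 11 did not pass the adjusted threshold (edgeR adjusted p of 0.0599 to 0.202) and are given as values. A 95% Wilson interval of a single library in the named tiles and those above was 2.97 to 24.0 points wide, from 50 to 3230 reads, and covers counting error only.

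All 6 named tiles with a positive contrast had a gap between -28.6 and -51.9 points. The tile on CM003287.1 from 14407001 to 14408000 (10 cytosines) had 61.1% and 59.1% in the ovary at T4, against 26.7% and 25.9% at T1, with a contrast of 36.2 points ± 2.12 (SE). Its right neighbour had a contrast of 28.3 points and a gap of -35.4 points. Pituitary levels in this tile were 63.2% and 64.7% at T4, against 66.5% and 73.1% at T1, so at T4 the ovary nearly reached the pituitary. The tile on CM003287.1 from 92003001 to 92004000 (8 cytosines) had 30.0% and 40.6% in the ovary at T4, against 12.9% and 6.70% at T1, with a contrast of 31.8 points ± 6.22 (SE). The tile on CM003290.1 from 27429001 to 27430000 (14 cytosines) had 38.9% and 40.7% at T4, against 18.5% and 7.83% at T1, with a contrast of 31.4 points ± 5.60 (SE).

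In each of these the ovary at T1 was by far the lowest group. The tile on CM003306.1 from 11470001 to 11471000 (8 cytosines) had 51.2% and 60.3% in the ovary at T4, against 22.1% and 21.1% at T1, with a contrast of 38.5 points ± 4.98 (SE). The tile on CM003285.1 from 36889001 to 36890000 (7 cytosines) had 32.8% and 40.7% at T4, against 14.2% and 8.78% at T1, with a contrast of 35.3 points ± 5.16 (SE). There the pituitary, at 43.3% and 37.5% at T4 and 52.8% and 52.1% at T1, was lower at T4, and there its range overlapped that of the ovary.

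Of the 6 named tiles with a negative contrast, 4 had a gap over 15 points and 2 a gap near 0. The tile on CM003291.1 from 35617001 to 35618000 (5 cytosines) had 12.5% and 8.51% in the ovary at T4, against 59.5% and 67.2% at T1, with a contrast of -53.9 points ± 4.67 (SE). The other tissues were near 0 at both times, at 0 to 9.30%, and the 2 pituitary libraries without a methylated read there allow, at 3 counts of their reads, up to 2.94% (T4 replicate 2) and 3.0% (T1 replicate 1). The ovary was thus far above the other tissues only at T1. The tile on CM003293.1 from 88528001 to 88529000 (6 cytosines) had 6.52% and 6.86% in the ovary at T4, against 35.1% and 60.7% at T1, with a contrast of -45.7 points ± 12.9 (SE). At T4 its ovary mean was 6.69%, against 6.20% in the pituitary and 9.60% in the liver, so its gap came from T1. The tile on CM003305.1 from 27866001 to 27867000 (7 cytosines) had 23.4% and 36.6% at T4, against 74.2% and 64.6% at T1, with a contrast of -41.2 points ± 8.25 (SE).

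The gaps of these 3 tiles, which average both time points, were 32.7, 21.6 and 34.98 points. There the ovary was nearer to the other tissues at T4 than at T1. The tile on CM003298.1 from 21885001 to 21886000 (15 cytosines) was of the same kind but smaller, with 14.1% and 14.5% at T4, against 33.2% and 23.4% at T1, and a contrast of -16.5 points ± 4.92 (SE). The last 2 had gaps near 0. The tile on CM003288.1 from 93486001 to 93487000 (7 cytosines) had 1.97% and 2.37% at T4, against 9.42% and 6.45% at T1, with a contrast of -9.08 points ± 1.61 (SE). The tile on CM003300.1 from 24844001 to 24845000 (5 cytosines) had 72.5% and 69.8% at T4, against 90.2% and 89.1% at T1, with a contrast of -25.8 points ± 3.62 (SE). In it the pituitary and the liver were 7.62 and 7.09 points higher at T4.

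**Figure D5:**
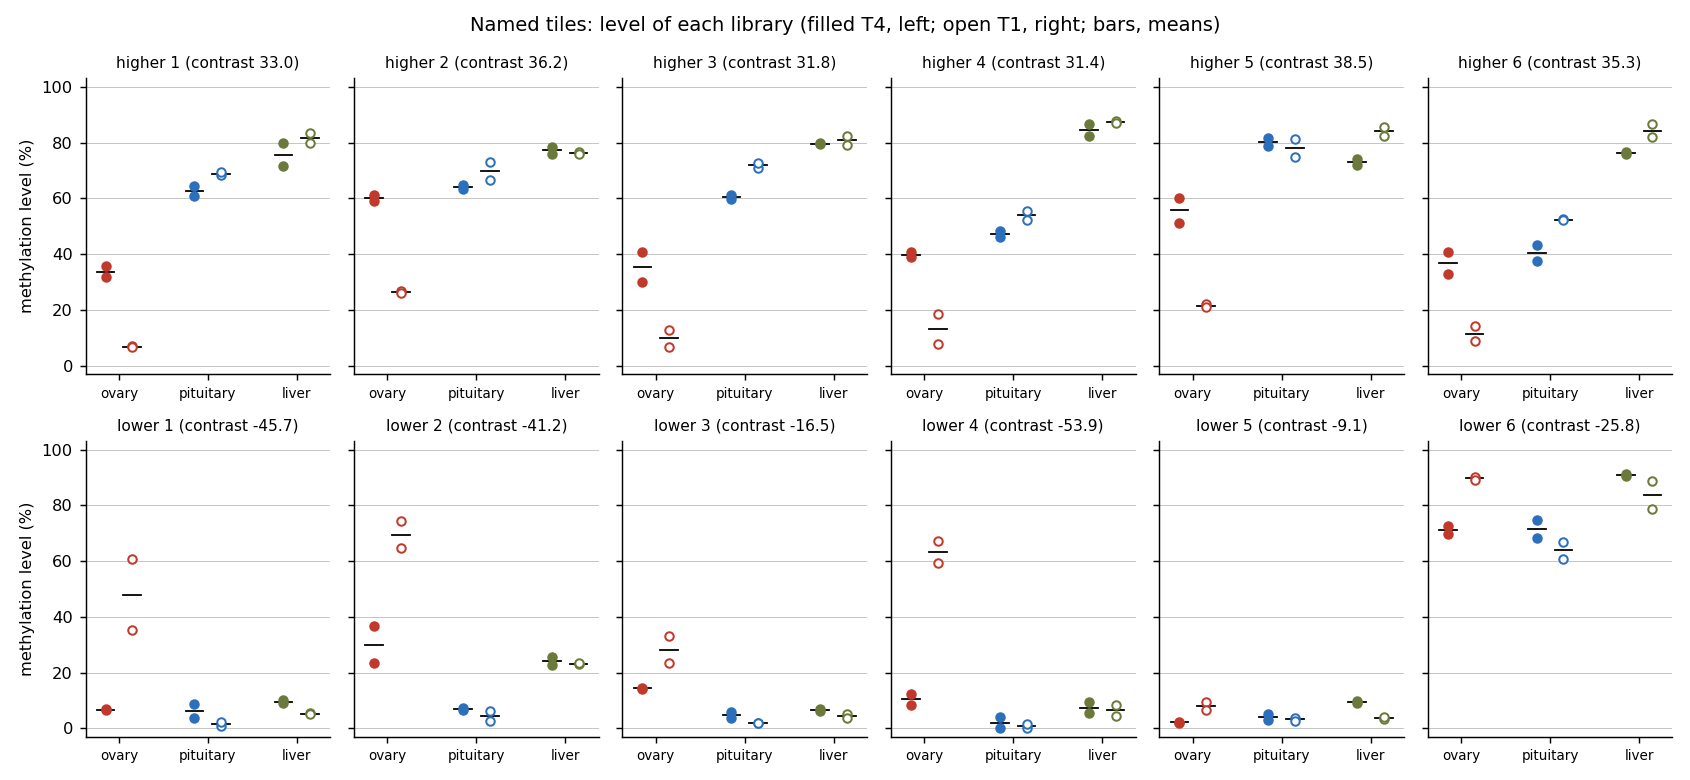
Methylation level (%, y axis) of each library in the 12 named tiles (top, positive contrast; bottom, negative contrast; each row in order of edgeR p), with T4 as filled points left of T1 as open points, red for the ovary, blue for the pituitary and green for the liver, and bars for the means. In the top row the ovary T1 libraries lie between 6.70% and 26.7% and the ovary T4 libraries between 30.0% and 61.1%. In the bottom row the ovary T4 libraries lie below the ovary T1 libraries in every tile. The naming rule required the ovary T4 and T1 libraries to be apart, so their separation is no result.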

How the data were processed

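The 12 libraries were made by whole-genome bisulfite sequencing from 3 tissues at 2 time points. Per the study's methods and the labels, the authors trimmed reads with Trim Galore 0.5, mapped them to bisulfite-converted ICSASG_v2 with BS-Seeker2 2.1.8 and Bowtie2, removed PCR duplicates with Picard and called methylation with BS-Seeker2. The deposited files hold the raw count of reads and of methylated reads for each CpG cytosine with at least 10 reads, without normalization. Low-coverage cytosines and those covered in only some libraries were thereby lost, and common cytosines are a subset with higher coverage.

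Tile levels, contrasts, tissue gaps and classes were computed in Python 3.11.15 (numpy 2.4.6, scipy 1.17.1, pandas 2.3.3). Class means were tested with exact permutation tests (time labels exchanged within each tissue, two-sided) and Benjamini-Hochberg adjustment over 23 classes. For single tiles, edgeR 4.0.16 (R 4.3.3) fitted methylated and unmethylated reads with terms for the library and the 6 groups, taking its dispersion from 20000 tiles. limma 3.58.1 was an alternative (pseudocount 1). The class test and the tile test were tested on simulated data, but only the results for the tile test are given here. In the simulated tiles, limma on log2 ratios recovered 0% of the gains and 1% of the losses planted at 30 points. There limma on levels recovered 0% of both.

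Tiles were named as the 6 of smallest edgeR p per direction with at least 5 common cytosines, coverage at most 3 times the median in every library, ovary T4 and T1 libraries apart, a contrast that kept its sign and at least 50% of its size without any library, and 10 kb between tiles. The 3 tiles that passed are also described, 2 of which fell outside this rule and were chosen after their values were seen. The tiles, classes and rules were chosen with earlier results of these data known. Groups and replicate numbers came from the library descriptions, which call replicates biological. The edgeR and limma p-values rest on the spread between these libraries. The permutation p-values rest on the place of the observed time labels among the arrangements. Without a fish block, neither kind takes account of libraries from the same fish. Gene lists and gene positions were not used, for want of an annotation of this assembly here.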

Additional observations from a re-analysis of the deposited data

Results flagged for a closer look

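The contrast sets the time change of the ovary against that of the other tissues, and 15 of its values passed the exact permutation test. That test exchanges the time labels in every tissue. Its null is therefore no time change in any tissue, not an equal change in all of them. The first was the mean over all tiles, at 0.978 points. By level, the values were 1.32 points from 10 to 20%, 3.40 points from 20 to 30%, 4.62 points from 30 to 40%, 5.68 points from 40 to 50%, 5.06 points from 50 to 60%, 3.57 points from 60 to 70% and 1.84 points from 70 to 80%. By common cytosines per tile, they were 0.900 points with 3 to 4, 1.03 points with 5 to 7, 1.07 points with 8 to 12 and 1.03 points with 13 to 20. By tissue gap, they were 12.1 points under -30 points, 7.04 points from -30 to -15 points and 1.95 points from -15 to -5 points. The classes overlap between the 3 divisions, and all rest on the same 12 libraries.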

How the results depend on the processing

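The mean over all tiles, the level class of 40 to 50%, the density class of 21 to 40 cytosines and the gap class under -30 points kept their sign under every alternative that was run for each, which were not the same for all 4. Leaving out each library gave 0.576 to 1.38, 4.00 to 7.35, 0.429 to 1.01 and 8.88 to 15.3 points, with the lowest value of each without ovary T4 replicate 2. The mean over all tiles no longer passed without 3 of the ovary libraries (ovary T4 replicate 2, ovary T1 replicate 1 and ovary T1 replicate 2), and the gap class no longer passed without ovary T1 replicate 2 (9.67 points, exact permutation test, p = 0.0648). The level class no longer passed without ovary T1 replicate 2, pituitary T4 replicate 2 or pituitary T1 replicate 1. The density class had p = 0.0463 with all libraries (exact permutation test, adjusted p = 0.0666). Over the single omissions it stayed under 0.05 only without ovary T4 replicate 1 or liver T4 replicate 2 (exact permutation tests, p = 0.0278 and p = 0.00926). Passing in this paragraph means an unadjusted p under 0.05. Against the pituitary alone the 4 values were 1.19, 5.59, 0.918 and 12.2 points, and against the liver alone 0.767, 5.76, 0.519 and 12.0 points; none passed, in a design whose smallest p is 0.0556. With only the fish codes that the titles give in all tissues they were 1.63, 8.87, 1.17 and 18.03 points. For all tiles the median was 0.467 points, the log2 odds contrast 0.0672 (exact permutation test, p = 0.0648) and the mean over every cytosine of each file 0.311 points (exact permutation test, p = 0.583), and the last 2 no longer passed. Classes set by pituitary and liver levels gave 4.19 points, and log2 odds 0.38, for levels of 40 to 50%, and neither passed (exact permutation tests, p = 0.0648 and p = 0.0556). At 20 or more reads the density class had 0.759 points, and with cytosines of any library 0.692 points, and neither passed. Gap classes set with other libraries gave 17.4 and 5.96 points. The cause of these shifts was not tested.

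The 3 tiles called by edgeR became 0 to 141 without single libraries, 14 at 20 or more reads, 14 with 5 kb tiles, 18 with 1 or more cytosines, 0 without high-coverage tiles (27584 at an unadjusted p under 0.05), 0 with limma on log2 ratios (31524 at an unadjusted p under 0.05) and 9 with limma on levels. With the replicate number as a block 24 tiles were called. The 4 means (0.978, 5.68, 0.719 and 12.1 points) cannot change with that block, as each group held both replicate numbers. Within a time point all 8 matching pairs shared their replicate number, but 4 pairs with the same number did not match, and T4 and T1 libraries of the same number came from different fish. Replicate differences correlated between groups at -0.0401 to 0.205. With the titles' fish codes as a block 1320 tiles were called. The matched fish as a block, chosen after seeing the data, gave 2 tiles and means of 0.782, 5.16, 0.461 and 10.65 points. In those means the T1 values came from the T1 replicate 1 libraries alone. For the classes, the title codes, log2 odds and single other tissues were also chosen after seeing the data, as were the exchanged gap classes. With 2 libraries per group and a median of 5 cytosines per tile, single tiles were near the limit of what could be called.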
